A study of Mus musculus with 21 samples.

Results

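The difference between the effect of JNK1 loss in liver and its effect in epididymal fat was measured gene by gene, as (liver knockout minus liver wild type) minus (fat knockout minus fat wild type). The groups were set by the sample titles and hold 14 of the 21 arrays of the series. These are 3 liver JNK1 Knock-out (KO) arrays, 3 liver wild-type (WT) arrays, 4 fat KO arrays and 4 fat WT arrays, although the series text speaks of 4 for each condition; the other 7 arrays are of skin and were not used. All animals were male C57Bl6/J mice aged 45 weeks that had been given a high fat diet between weeks 5 and 44, so the diet is shared by KO and WT. The labels name neither the allele nor the part of the gene removed, and do not say whether arrays come from different mice, so the p-values measure only the spread between these samples. Of 27561 gene names on the array, 12632 were tested, those whose probe stood well above background on 3 or more arrays of liver and of fat. Values are those of the deposited log2 table, 1 unit being a doubling of intensity. A positive difference means that KO minus WT was higher in liver than in fat.

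JNK1, encoded by *Mapk8*, is a stress-activated kinase that phosphorylates Jun and other proteins, among them insulin receptor substrates. In obesity it is active in both tissues, where it is tied to insulin resistance in hepatocytes and adipocytes and to inflammation in adipose tissue. Liver exports glucose, lipoproteins and secreted proteins, whereas epididymal fat stores triglyceride and gains macrophages during obesity.

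Of the differences that passed the test the widest was that of *Ppp1r9a*, which encodes neurabin-1, an actin-binding partner of protein phosphatase 1. It was measured at 7.69, 7.22 and 7.35 in KO liver, against 8.72, 8.94 and 9.10 in WT liver. In fat its values were 9.91, 9.83, 9.90 and 9.66 in KO and 9.51, 9.03, 8.96 and 9.08 in WT. Every KO liver array was thus below every WT liver array, and every KO fat array above every WT fat array. The difference between the effects was -2.18 (SE 0.224; limma adjusted p = 0.0034), made of -1.50 in liver (adjusted p = 0.00494) and 0.68 in fat (adjusted p = 0.105).

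*Bcl7c*, which encodes a subunit of the SWI/SNF chromatin remodelling complex, was at 9.59, 10.35 and 10.02 in KO liver and at 12.03, 12.03 and 12.27 in WT liver. In fat it was at 10.05, 9.91, 9.87 and 9.56 in KO, against 9.87, 10.14, 10.17 and 10.07 in WT. The KO and WT liver arrays were far apart and the fat groups overlapped. The difference was -1.90 (SE 0.244; limma adjusted p = 0.0196), with -2.12 in liver (adjusted p = 4.85e-04) and -0.22 in fat (adjusted p = 0.597). *Gdap10*, a transcript that RefSeq lists as noncoding, had 8.98, 8.99 and 8.63 in KO liver and 9.91, 9.56 and 9.92 in WT liver. Its fat values were 9.999, 10.31, 10.28 and 10.41 in KO and 9.84, 9.63, 9.75 and 9.73 in WT. The groups did not overlap in either tissue, with KO low in liver and high in fat. The difference was -1.44 (SE 0.197; limma adjusted p = 0.0256), with -0.93 in liver (adjusted p = 0.0376) and 0.51 in fat (adjusted p = 0.173).

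These 3 genes were the ones called for the difference at an adjusted p below 0.05, which is 0.0237% of those tested, and all 3 were negative. At an unadjusted p below 0.05 there were 409 positive and 652 negative genes, 8.4% together. In liver alone 16 genes passed (0.127%), 4 higher (0.0317%) and 12 lower (0.095%), and in fat 7 (0 higher and 7 lower, 0.0554%). The 2 tissue effects and their difference come from the same arrays and are not independent. KO and WT did not overlap for 1470 genes in liver (11.6%) and 898 in fat (7.11%). They did not overlap in both tissues for 116 of the 12632 genes tested. Of these, 65 had opposite directions, 44 of them lower in KO liver and higher in KO fat, and 51 had the same direction. Whether these counts differ from those of unrelated effects was not tested. The median difference of all genes was -0.03.

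**Figure D1:**
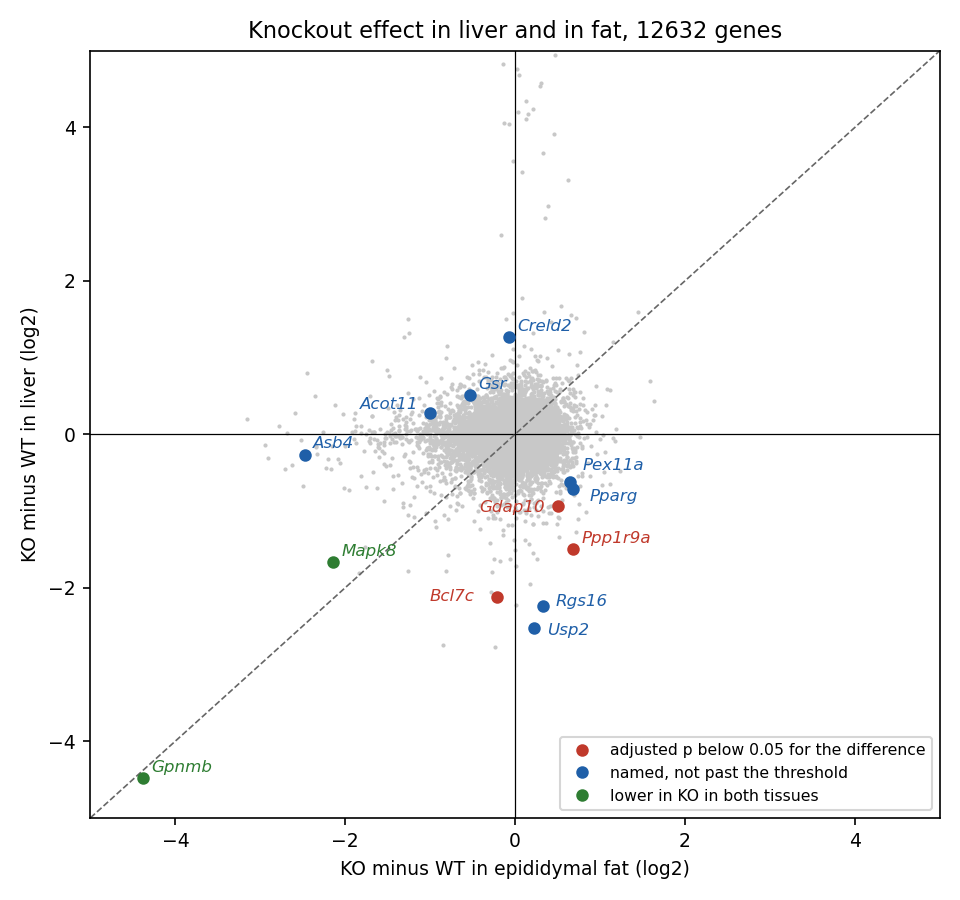
KO minus WT in liver (vertical axis, log2) against KO minus WT in epididymal fat (horizontal axis, log2) for 12632 genes, grey points, with equal effects on the dashed line. The 3 genes called for the difference (red) lie below that line, *Mapk8* and *Gpnmb* (green) lie near it, and 1 gene, *Akr1b7*, falls outside the plotted range.

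The arrays carried more than 1 probe for some of these genes. For *Ppp1r9a* the measured probe covers positions 5114866 to 5114925 of chromosome 6 in mm9. Its other 5 probes were detected on 0 liver arrays and on 0 or 1 fat arrays. *Bcl7c* had 4 probes on chromosome 7. The 2 whose genomic span holds an intron, from 134848657 to 134849267 and from 134849312 to 134850734, gave differences of -1.90 and -1.60. The probes starting at 134850782 and 134807032 gave 0.25 and 0.24, with liver effects of 0.17 and 0.13, the second of them with 0 liver arrays above background, so the probes disagree. *Gdap10* was read at positions 33511572 to 33511631 of chromosome 12. The junction probes of *Bcl7c* and the probe of *Gdap10* are shown because they are the sequences the differences were read from, in the 5′ to 3′ sense of the files.
Bcl7c probe with a difference of -1.90: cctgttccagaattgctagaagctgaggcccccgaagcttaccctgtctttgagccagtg
Bcl7c probe with a difference of -1.60: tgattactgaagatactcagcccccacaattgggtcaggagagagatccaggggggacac
Gdap10 probe with a difference of -1.44: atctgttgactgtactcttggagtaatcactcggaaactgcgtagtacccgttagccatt

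The *Ppp1r9a* call was kept when each array was left out in turn, and ended with the mean of all 6 probes (-0.47, adjusted p = 0.609) and with slide as a fixed block (-2.38, adjusted p = 0.493). The *Bcl7c* call ended without liver KO 3, liver WT 1, fat KO 2, fat WT 2, fat WT 3 or fat WT 4 (adjusted p from 0.0533 to 0.0759), with the mean of its probes (-0.75, adjusted p = 0.369), with the fixed slide block (-1.46, adjusted p = 0.752) and without liver WT 1 and WT 2 together (-2.06, adjusted p = 0.082). The *Gdap10* call ended without liver KO 1, liver KO 3, liver WT 1, fat KO 2, fat KO 3, fat KO 4, fat WT 2, fat WT 3 or fat WT 4, and with the fixed slide block (-1.42, adjusted p = 0.752). It also ended, at adjusted p from 0.0537 to 0.479, with scanner values scaled to the 75th percentile, with no filter, with the mean of all probes, with all 21 arrays, with the replicate block (adjusted p = 0.0943) and without liver WT 1 and WT 2 together. The sizes of these 3 differences without any 1 array stayed within 1.5 times the values above. The 14 arrays came from 6 slides, none of which held both liver groups, so slide and genotype cannot be told apart from the liver arrays alone. The fixed slide block separates them only through fat arrays on the same slides. On the 1 slide with both fat groups, KO minus WT was 0.74 for *Ppp1r9a*, -0.15 for *Bcl7c* and 0.58 for *Gdap10*.

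**Figure D2:**
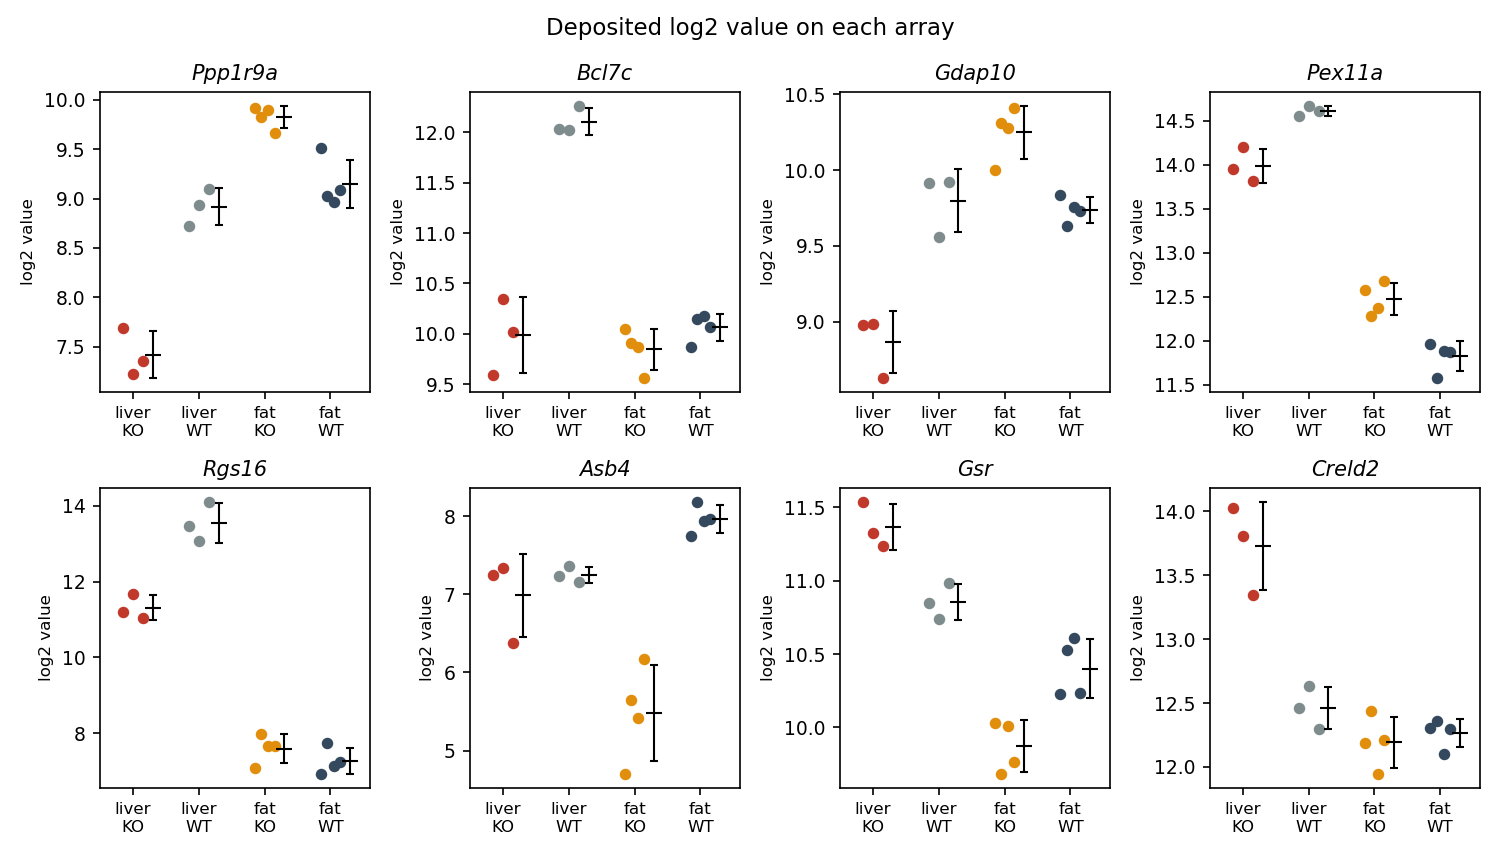
Deposited log2 value (vertical axis, its range differs between panels) of 8 genes on each array of liver KO, liver WT, fat KO and fat WT, with the mean and SD beside the points. KO points of *Ppp1r9a*, *Gdap10* and *Pex11a* lie below WT in liver and above WT in fat, and those of *Gsr* lie above WT in liver and below WT in fat.

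*Mapk8* itself was at 6.15, 5.48 and 5.35 in KO liver against 7.09, 7.22 and 7.67 in WT liver, and at 5.62, 5.97, 5.81 and 5.38 in KO fat against 7.997, 7.65, 7.84 and 7.88 in WT fat. KO arrays were the lower in both tissues, without overlap. KO minus WT was -1.66 in liver (limma adjusted p = 0.0158) and -2.15 in fat (adjusted p = 7.27e-04), and the difference of 0.48 (SE 0.295) did not pass (adjusted p = 0.694). That probe was detected on 4 of 6 liver arrays and 6 of the 7 fat arrays with a usable scanner file. Among them were 1 of 3 KO liver arrays and 3 of 4 KO fat arrays, so the effects and their difference are uncertain. KO means were 5.66 in liver and 5.70 in fat, and WT means 7.33 and 7.84. Whether the probe lies in the part removed is not given. For *Mapk9*, the gene of JNK2, the difference was 0.12 (adjusted p = 0.933). Of the 80 tested genes with a probe within 10 Mb of *Mapk8*, where DNA of another strain can remain around a targeted gene, *Mapk8* was the 1 called in a tissue, and their median difference was -0.06.

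Genes with the next smallest p did not pass, and their values are given as such. *Pex11a*, which encodes a protein of peroxisome division, was at 13.96, 14.20 and 13.82 in KO liver and 14.56, 14.67 and 14.62 in WT liver, against 12.58, 12.28, 12.37 and 12.68 in KO fat and 11.96, 11.57, 11.89 and 11.88 in WT fat. The groups were apart in both tissues in opposite directions (difference -1.28, SE 0.194; limma adjusted p = 0.0514). *Rgs16*, a regulator of G protein signalling, was at 11.21, 11.68 and 11.05 in KO liver and 13.47, 13.06 and 14.11 in WT liver, with overlapping fat groups between 6.93 and 7.98. Its difference was -2.57 (SE 0.394; adjusted p = 0.0514), and KO minus WT in liver was -2.23 (adjusted p = 0.0158). The other negative differences were -1.06 for the DNA repair nuclease gene *Dclre1a*, -2.24 for *Sdcbp2*, which encodes the scaffold protein syntenin-2, and -1.59 for *Slc5a6*, which encodes a transporter of biotin and pantothenate (adjusted p = 0.169 each). For all 3, KO liver was below WT liver without overlap and the fat effects were between 0.01 and 0.16.

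The positive differences came from liver for some genes and from fat for others. *Creld2*, a gene of endoplasmic reticulum (ER) stress, was at 14.03, 13.81 and 13.35 in KO liver and 12.46, 12.63 and 12.30 in WT liver, and between 11.94 and 12.44 in both fat groups. Its liver arrays did not overlap and its fat arrays did (difference 1.34, SE 0.234; limma adjusted p = 0.152), and the liver effect of 1.27 passed by itself (adjusted p = 0.0195). *Tars*, the threonyl-tRNA synthetase gene, had a like pattern, with 0.87 in liver (adjusted p = 0.0376), -0.14 in fat and a difference of 1.003. *Sec23b*, which encodes a coat protein of vesicles leaving the ER, differed by 0.88, from 0.67 in liver and -0.21 in fat. Its other probe, above background on 6 liver and 7 fat arrays, gave 0.68 in liver, -0.99 in fat and a difference of 1.68. The probes thus disagree on the part of fat.

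*Asb4*, which encodes an adaptor of a ubiquitin ligase, was instead set by fat, at 4.70, 5.65, 5.42 and 6.17 in KO and 7.75, 8.19, 7.93 and 7.97 in WT. In liver it was at 7.25, 7.33 and 6.38 in KO and 7.23, 7.36 and 7.16 in WT, with overlap. The effect in fat was -2.47 (limma adjusted p = 0.0041) and the difference 2.21 (SE 0.419; adjusted p = 0.169). *Gsr*, the glutathione reductase gene, was higher in all KO liver arrays and lower in all KO fat arrays than in WT, with 0.51 in liver, -0.53 in fat and a difference of 1.04 (SE 0.199; adjusted p = 0.169). *Acot11*, an acyl-CoA thioesterase gene, *Acta2*, the smooth muscle actin gene, and *Tuba1c*, an alpha-tubulin gene, differed by 1.28, 0.96 and 1.28. Their fat effects were -0.998, -0.63 and -0.66, and for each of them all KO fat arrays were below all WT fat arrays. For *Acta2*, another probe above background on 6 liver and 7 fat arrays gave -0.28 in liver, -0.57 in fat and a difference of 0.29. That probe shared the fall in fat, but its liver effect had the opposite sign. The remaining *Acta2* probes had positive differences but were above background on 0 or 1 liver arrays. A second probe of *Tuba1c*, above background on 6 liver and 7 fat arrays, did not show the fall in fat. It gave 0.02 in fat and a difference of 0.50.

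Cell type markers fitted the labelled tissues. Markers of hepatocytes (18 genes) had a mean log2 value between 14.8 and 15.2 on liver arrays and between 5.75 and 8.57 on fat arrays, and adipocyte markers (24 genes) between 8.22 and 8.84 on liver arrays and between 12.9 and 13.6 on fat arrays. In such bulk tissue, fewer cells of a type and less RNA per cell cannot be told apart. Markers of the exocrine pancreas were uneven among liver arrays. Their list mean over 18 genes was 11.4, 11.5 and 12.1 in KO liver, against 6.76, 6.33 and 11.3 in WT liver, so WT 3 was with the KO arrays. The summed intensity of the list ran between 130440 and 257370 in KO liver and between 2005.9 and 153150 in WT liver, and between 4235.8 and 26967 in KO fat and between 8347.2 and 13647 in WT fat. All 11 tested members had positive differences, against 46.5% of all genes, with a median of 4.16. Of them 10 had an unadjusted p below 0.05, against 3.24% of all genes on the positive side, and 0 were called. Without liver WT 1 and WT 2 that median was 0.16. *Amy2a5* and *Cela1*, the genes of a pancreatic amylase and elastase, had differences of 4.18 and 2.59. The epidermal gene list and the skeletal muscle list were highest on liver KO 1, KO 2 and WT 3, with list means of 6.64, 7.65 and 7.35 for keratinocytes and 8.52, 7.59 and 8.23 for muscle, against 5.77 to 5.80 and 5.69 to 7.11 on liver KO 3, WT 1 and WT 2.

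**Figure D3:**
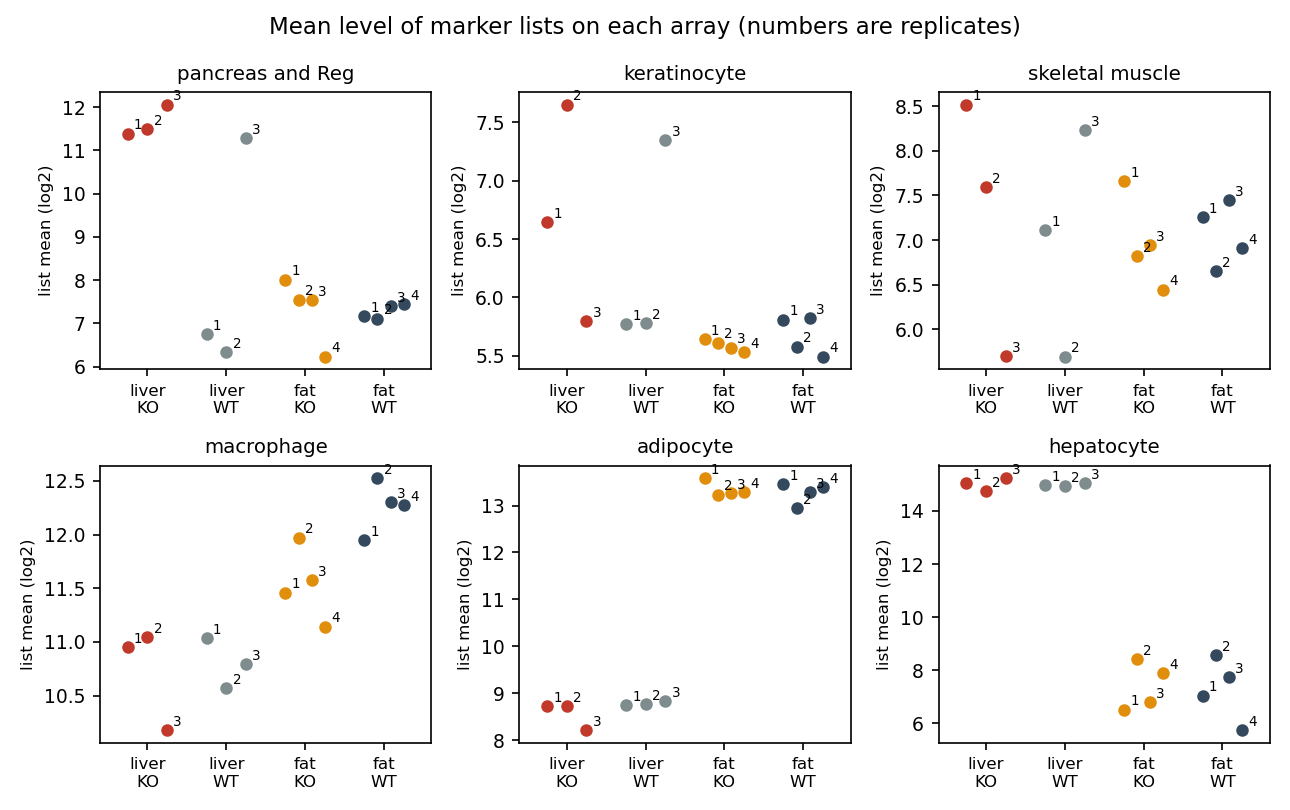
Mean log2 value (vertical axis) of 6 marker lists on each array, by group, with the replicate number beside each point. The pancreas list is high on all 3 KO liver arrays and on WT 3, the macrophage list is lower on most KO than WT fat arrays, and the adipocyte and hepatocyte lists separate fat from liver.

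Genes of ER protein folding had the most positive median of the 26 pathway lists. The unfolded protein response raises chaperones, disulfide isomerases and degradation factors when unfolded protein gathers in the ER, and secretory hepatocytes use it heavily. Of 29 tested genes 25 had a positive difference, against 46.5% of all genes, with a median of 0.33 against -0.03 for all. At an unadjusted p below 0.05 there were 9 positive and 0 negative, against 3.24% and 5.16% of all genes, and 0 passed after adjustment. The median came from liver, where it was 0.29 with 27 of 29 above 0 (45.9% of all genes), and in fat it was -0.07 with 10 of 29 above 0 (52.3% of all genes). In liver *Creld2* was the 1 member called.

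*Manf*, which encodes a secreted factor of the ER stress response, was at 12.08, 12.35 and 11.85 in KO liver and 10.87, 11.31 and 11.27 in WT liver, and between 10.03 and 10.46 in fat (difference 0.97). *Hyou1*, an ER chaperone gene of the HSP70 family, was at 12.43, 11.86 and 11.99 in KO liver and 11.20, 11.53 and 10.44 in WT liver, and between 9.20 and 9.96 in fat (difference 1.31). *Sdf2l1*, which encodes a partner of ER chaperones, was at 12.09, 12.08 and 11.99 in KO liver and 11.24, 11.04 and 11.76 in WT liver (difference 0.99). All KO liver arrays were above all WT liver arrays for these 3 genes, and the fat groups overlapped. Liver WT 3, which shared the high pancreatic transcripts of the KO arrays, was within or below the range of the other WT arrays for *Creld2*, *Manf* and *Hyou1* and above it for *Sdf2l1*. The list median was 0.23 without liver WT 1 and WT 2, the arrays low in pancreatic transcripts, and 0.45 without the liver arrays high in epidermal and muscle transcripts. Exocrine pancreas itself is rich in ER chaperones, and the part of its transcripts in these values was not tested further.

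**Figure D4:**
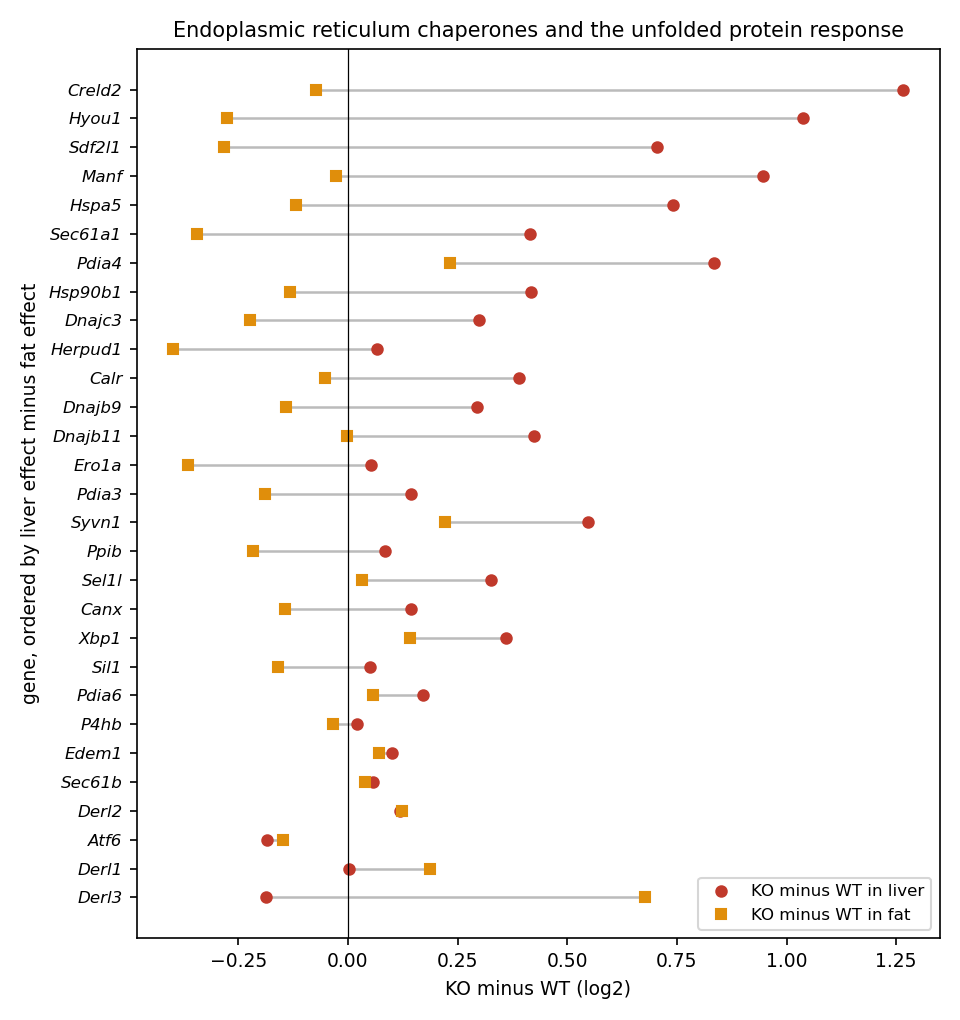
KO minus WT (horizontal axis, log2) of the 29 tested genes of the ER chaperone list in liver (red circles) and in fat (orange squares), ordered by the difference between the effects. Liver values lie to the right of fat values for 25 genes, with the widest gaps for *Creld2* and *Hyou1*.

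Promoters of some of these genes are shown because part of the list holds a sequence there, the ER stress response element (ERSE). The RefSeq promoter table (GRCm38.p6, 250 bases before to 50 after a start) held 23 of the 29 genes. CCAAT followed after 9 bases of any kind by CCACG, searched on both strands, was found in 9 of them (39.1%) and in 37 of 27025 genes of the table (0.137%). ERSE-II, which is ATTGG, 1 base of any kind and CCACG on either strand, was found in 2 further genes of the 23 and in 12 genes of the table (0.044%). The list was made of genes known for this response, so this share describes the list, and a match is not evidence of binding. Matches stood in the promoters of *Creld2* (chr15:88819396-88819695, plus strand), *Hspa5* (chr2:34771840-34772139, plus strand) and *Dnajc3* (chr14:118937682-118937981, plus strand), with the fixed letters of the motif in capitals. In *Creld2* it reads on the opposite strand. *Hspa5*, the gene of the main ER chaperone BiP, and *Dnajc3*, the gene of an inhibitor of the kinase PERK, were picked for their promoters after their values were seen. *Hspa5* was at 14.69, 14.48 and 14.27 in KO liver and 13.46, 13.92 and 13.83 in WT liver (difference 0.86), and *Dnajc3* had a difference of 0.52.
Creld2 promoter: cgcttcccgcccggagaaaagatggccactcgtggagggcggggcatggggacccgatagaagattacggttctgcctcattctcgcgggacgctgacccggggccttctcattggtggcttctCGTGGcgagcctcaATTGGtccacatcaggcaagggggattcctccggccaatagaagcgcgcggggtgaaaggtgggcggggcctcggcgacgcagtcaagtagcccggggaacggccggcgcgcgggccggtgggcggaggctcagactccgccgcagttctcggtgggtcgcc
Hspa5 promoter: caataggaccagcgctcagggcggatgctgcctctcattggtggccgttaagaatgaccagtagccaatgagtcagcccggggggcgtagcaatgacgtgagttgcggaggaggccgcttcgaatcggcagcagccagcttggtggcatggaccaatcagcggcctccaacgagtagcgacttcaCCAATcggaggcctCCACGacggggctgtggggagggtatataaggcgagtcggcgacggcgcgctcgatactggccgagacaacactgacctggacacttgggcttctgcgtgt
Dnajc3 promoter: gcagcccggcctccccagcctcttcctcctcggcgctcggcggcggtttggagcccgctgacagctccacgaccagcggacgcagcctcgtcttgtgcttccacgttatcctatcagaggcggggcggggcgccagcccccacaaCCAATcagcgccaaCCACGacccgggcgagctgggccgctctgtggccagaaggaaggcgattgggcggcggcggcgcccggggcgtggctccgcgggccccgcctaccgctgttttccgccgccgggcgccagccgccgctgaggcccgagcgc

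Targets of ATF4, a factor that raises amino acid synthesis and transport under stress, had 17 of 22 positive differences, against 46.5% of all genes. Their median was 0.21 (0.12 without fat WT 3). At an unadjusted p below 0.05 there were 4 positive and 0 negative, against 3.24% and 5.16% of all genes. *Slc3a2*, a subunit gene of amino acid transporters, differed by 0.64, from 0.23 in liver and -0.41 in fat. The tRNA synthetase genes *Wars* and *Aars* differed by 0.84 and 0.41, and *Atf4* itself by 0.72. Proteasome genes were positive in 30 of 31 cases but by small amounts, with a median of 0.14, from 0.07 in liver and -0.09 in fat. Their median was 0.08 without fat KO 1 and 0.22 without fat WT 1. *Psmd11* and *Psmd1*, genes of the regulatory particle, differed by 0.48 and 0.55. Cytosolic heat shock genes had a median of 0.19, with 12 of 18 positive; it was 0.13 without liver KO 2, 0.30 without liver WT 3 and -0.05 without liver WT 1 and WT 2.

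**Figure D5:**
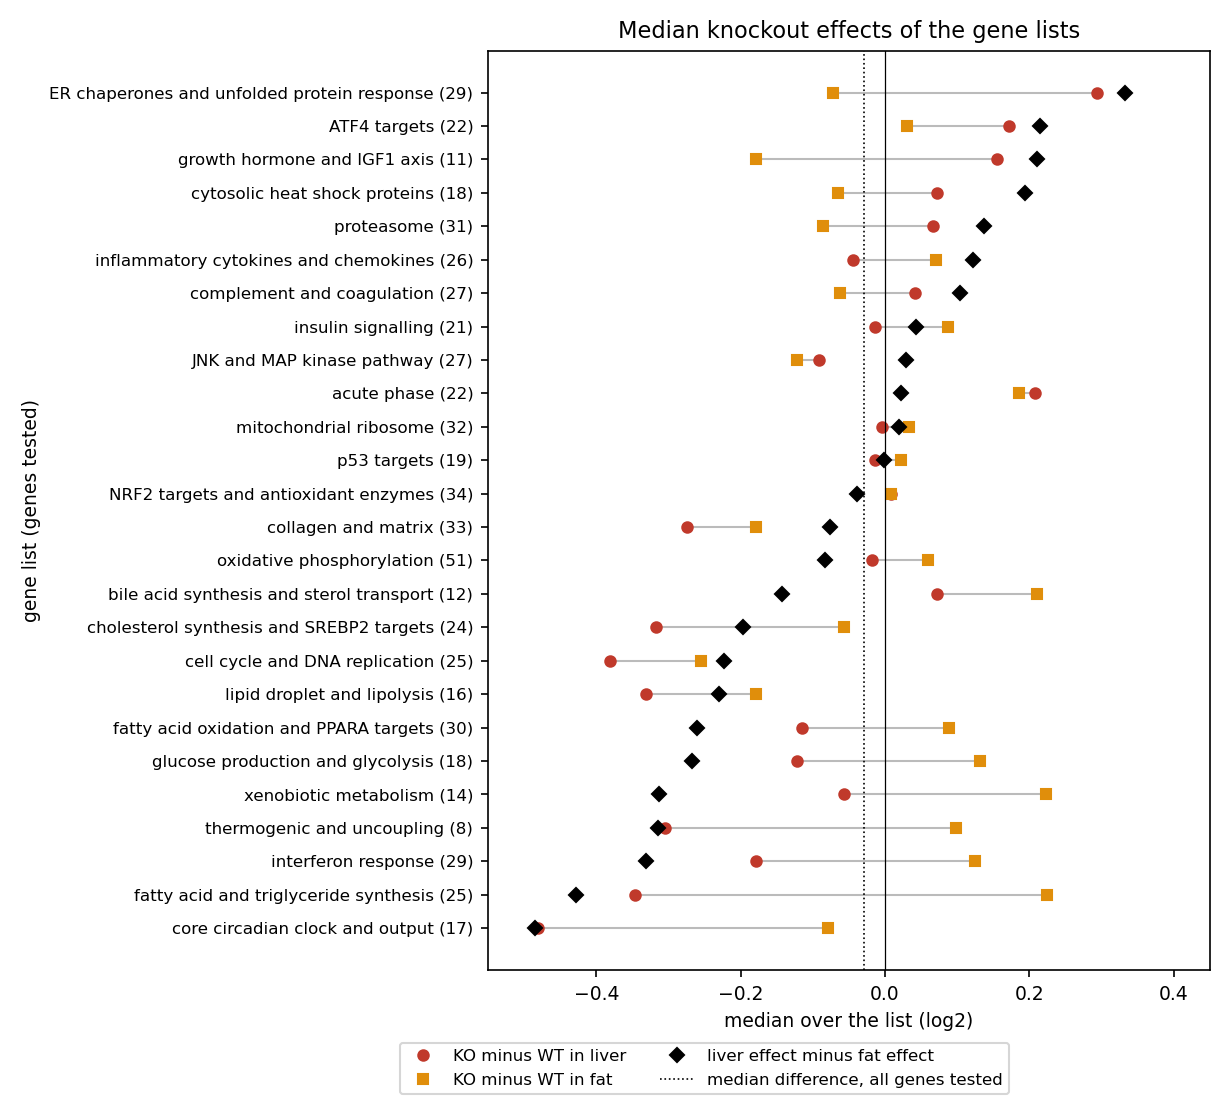
Median of 26 pathway lists (rows, number of genes tested in brackets) for KO minus WT in liver (red circles), KO minus WT in fat (orange squares) and the difference between them (black diamonds), on the log2 scale. ER chaperones have the highest median difference, 0.33, and clock genes the lowest, -0.48, against -0.03 for all genes tested (dotted line).

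Lipid genes lay on the negative side. Fatty acid and triglyceride synthesis, which turns surplus carbon into stored fat in both tissues, had 5 of 25 positive differences and a median of -0.43, from -0.35 in liver and 0.22 in fat. At an unadjusted p below 0.05 there were 0 positive and 3 negative, against 3.24% and 5.16% of all genes, and 0 passed. *Thrsp*, a lipogenic regulator gene, was at 13.91, 14.42 and 13.66 in KO liver and 14.51, 15.03 and 15.22 in WT liver, and at 14.71, 13.74, 12.78 and 13.87 in KO fat and 13.88, 12.99, 13.05 and 13.41 in WT fat. Its liver groups were apart and its fat groups overlapped (difference -1.36). *Mlxipl*, which encodes the glucose-sensing factor ChREBP, was at 11.56, 10.95, 10.93 and 11.34 in KO fat and 10.76, 10.12, 10.21 and 10.30 in WT fat, with 0.14 in liver and a difference of -0.71. *Scd1*, the main desaturase gene, differed by -1.27. Without liver KO 3 the list median was -0.26.

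*Pparg*, the nuclear receptor that drives fat cell formation and lipid storage, was at 10.45, 10.61 and 9.74 in KO liver and 11.09, 11.06 and 10.79 in WT liver. In fat it was at 13.66, 13.29, 13.36 and 13.94 in KO and 12.98, 12.63, 12.91 and 12.98 in WT. KO was below WT in liver and above WT in fat, without overlap in either (difference -1.40, SE 0.298; limma adjusted p = 0.239). Genes of lipid droplets that fatty liver turns on were lower in KO liver by their values. *Cidec*, whose product fuses droplets, was at 11.37, 11.63 and 8.72 in KO liver and 13.23, 13.27 and 13.55 in WT liver, and between 16.8 and 17.7 in fat (difference -2.54). *Plin4*, a droplet coat gene, was at 9.98, 9.71 and 7.54 in KO liver and 10.95, 10.91 and 11.23 in WT liver (difference -2.13). *Cidea*, a relative of *Cidec*, differed by -1.90, and *Slc2a4*, the insulin-responsive glucose transporter gene, by -1.52. Liver KO 3 was the lowest liver array for *Cidec*, *Plin4*, *Cidea* and *Slc2a4*, and none of them passed.

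*Adipoq*, the adiponectin gene, a defining adipocyte gene, had a positive difference of 0.97, with liver values of 7.10, 6.81 and 5.66 in KO and 5.73, 5.09 and 5.69 in WT. The whole adipocyte list had 5 of 16 positive differences and a median of -0.32, which was -0.09 without liver KO 3, -0.11 without fat KO 1 and -0.20 without fat WT 2. The lipid droplet list had 5 of 16 positive and a median of -0.23, which was -0.09 without liver KO 3 and -0.11 without fat KO 1. *Lipa*, the lysosomal lipase gene, had a difference of 1.04 from fat, at 12.35, 12.63, 12.54 and 11.93 in KO and 12.94, 13.91, 13.47 and 13.46 in WT.

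Fatty acid oxidation genes and targets of PPARA, the fasting receptor of liver, had 6 of 30 positive differences and a median of -0.26 (-0.16 without fat KO 4). *Ppara* itself was at 13.01, 13.12 and 13.23 in KO liver and 13.70, 13.71 and 14.15 in WT liver, with overlapping fat groups (difference -0.79). *Acot2*, a mitochondrial thioesterase gene, differed by -0.95. *Ppargc1b*, a coactivator of mitochondrial genes, was at 8.89, 8.91 and 9.05 in KO liver and 10.004, 9.70 and 10.04 in WT liver (difference -1.13). Oxidative phosphorylation genes were near the background, with 22 of 51 positive and a median of -0.08. Cholesterol synthesis had 5 of 24 positive and a median of -0.20. It had 0 members at an unadjusted p below 0.05 in either direction, against 8.4% of all genes. Its median was -0.11 without liver KO 3, -0.34 without fat KO 1, -0.08 without fat KO 4 and -0.09 without fat WT 1. Among genes of glucose handling, *Hk2*, a hexokinase gene, differed by -0.98 and *Slc2a1*, a glucose transporter gene, by 0.99, the first from liver (-0.86) and the second from fat (-0.77).

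Clock genes had the lowest median of the pathway lists, -0.48, from -0.48 in liver and -0.08 in fat, with 3 of 17 positive. The clock activators and the output genes they drive cycle in opposite phase over the day, and the labels give no hour of collection. At an unadjusted p below 0.05 there were 1 positive and 4 negative, against 3.24% and 5.16% of all genes. *Usp2*, an output gene for a deubiquitinase, was at 6.14, 6.56 and 7.16 in KO liver and 8.73, 8.47 and 10.25 in WT liver, and at 6.17, 6.29, 6.52 and 6.26 in KO fat and 5.65, 5.75, 6.53 and 6.41 in WT fat. Only the liver groups were apart, with -2.53 (limma adjusted p = 0.0376), and the difference was -2.75 (SE 0.537; adjusted p = 0.169). *Arntl*, the activator also called Bmal1, was at 8.997, 9.02 and 8.54 in KO liver and 7.25, 7.31 and 6.68 in WT liver (difference 1.69). *Dbp* and *Tef*, output factors of 1 family, differed by -1.78 and -0.93. *Dbp* was at 13.14, 13.68 and 13.74 in KO liver and 15.56, 15.40 and 15.78 in WT liver, and spread widely in fat, at 11.77, 12.74, 14.08 and 14.31 in KO and 12.61, 13.38, 14.02 and 14.03 in WT. Thus the activator was high and the output genes low on every KO liver array, while in fat the groups overlapped. Without fat WT 2 the list median was -0.31, and without the liver arrays high in epidermal and muscle transcripts it was -0.27.

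The promoter of *Tef* is shown as an example of the sequence that clock activators bind, the E-box CACGTG, which reads alike on both strands. It stood in 2 of the 14 clock genes in the promoter table, *Tef* and *Per1*, against 8.09% of all 27025 genes of the table (7.15% of its 32851 promoters). *Tef* has a second start in the table, whose window (chr15:81811164-81811463) also holds an E-box. The window shown is chr15:81802423-81802722 (GRCm38.p6, plus strand), with the E-box in capitals.
Tef promoter: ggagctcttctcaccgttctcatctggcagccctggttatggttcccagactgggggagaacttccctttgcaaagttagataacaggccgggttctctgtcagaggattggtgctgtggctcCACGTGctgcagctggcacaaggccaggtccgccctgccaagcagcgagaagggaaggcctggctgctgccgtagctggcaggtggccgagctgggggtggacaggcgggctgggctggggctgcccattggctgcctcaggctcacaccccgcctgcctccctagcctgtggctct

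NRF2 targets and antioxidant enzymes were at the background as a list (16 of 34 positive, median -0.04). At an unadjusted p below 0.05 there were 6 positive and 2 negative, against 3.24% and 5.16% of all genes, and 0 were called. *Gclc*, which encodes the catalytic subunit of glutathione synthesis, differed by 0.76 from 0.33 in liver and -0.43 in fat, and the fat groups were apart. *Gstm1*, a glutathione transferase gene, and *Prdx6*, a peroxiredoxin gene, differed by -0.60 and -0.85, with fat effects of 0.55 and 0.62. The members with a positive difference at that level, *Gsr* and *Gclc* among them, had fat effects below 0.

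Interferon-induced genes were mostly negative, with 5 of 29 positive and a median of -0.33, from -0.18 in liver and 0.12 in fat. At an unadjusted p below 0.05 there were 0 positive and 5 negative, against 3.24% and 5.16% of all genes. *Ifit2*, an antiviral gene, was at 5.82, 5.67 and 5.30 in KO liver and 6.02, 6.79 and 6.93 in WT liver (difference -1.23). It was not well above background on any KO liver array and passed the filter through WT liver alone, so its place among those 5 lends no support. A lower bound on a fold was set from the lowest detected signal of each array or the probe itself, whichever is higher. For *Ifit2* that bound was no lower than the measured 1.98-fold of WT over KO liver (limma adjusted p = 0.195). Its other probe, above background on 4 liver and 5 fat arrays, gave -0.18 in liver and a difference of 0.18. *Usp18*, which encodes a brake on interferon signalling, was at 8.72, 8.89 and 8.42 in KO liver and 9.90, 9.59 and 9.25 in WT liver (difference -0.99). KO liver was below WT liver without overlap for *Usp18*, as for *Ifit3* (-0.57), and the fat groups of both overlapped. The median was -0.14 without liver KO 3 and 0.02 with slide as a fixed block.

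The differences of macrophage genes came mostly from fat, and 0 passed. Of 27 tested members 24 had a positive difference, with a median of 0.56, from -0.07 in liver and -0.76 in fat. The fall in KO fat was not shared by all members, as 3 of the 27 had fat effects above 0. Among these 3 was *Vsig4*, named after its values were seen. It was at 8.094, 8.325, 7.705 and 7.738 in KO fat and 7.185, 7.524, 7.065 and 7.469 in WT fat, higher in KO without overlap. *Cd9*, a tetraspanin gene of lipid-laden macrophages, was at 12.38, 12.49, 12.45 and 11.71 in KO fat and 13.24, 13.16, 13.26 and 13.13 in WT fat. *Cd52*, a leukocyte surface gene, was at 13.19, 14.31, 13.66 and 13.72 in KO fat and 15.38, 14.72, 15.41 and 14.50 in WT fat. Every KO fat array was below every WT fat array for both, and their liver groups overlapped (differences 0.98 and 1.21). *Laptm5*, a lysosomal gene of leukocytes, differed by 0.78. The summed intensity of the 31 markers on the array ran between 313770 and 529030 in KO fat and between 597910 and 813460 in WT fat, and between 130410 and 268950 in KO liver and between 156370 and 229680 in WT liver. There were 3 positive and 0 negative members at an unadjusted p below 0.05, against 3.24% and 5.16% of all genes. Red cell markers moved in the same fat arrays, with a list mean over 12 genes of 9.47, 9.15, 8.75 and 8.74 in KO fat and 8.50, 8.48, 8.48 and 8.41 in WT fat, without overlap, and their part in the macrophage values was not tested. The macrophage median was 0.29 without liver KO 2, and -0.01 without liver KO 1, KO 2 and WT 3 together.

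*Gpnmb*, a macrophage gene of lysosomes that was chosen after its values were seen, fell in KO in both tissues. It was at 6.74, 5.48 and 4.70 in KO liver and 10.74, 9.29 and 10.34 in WT liver, and at 9.54, 9.98, 10.38 and 9.63 in KO fat and 12.44, 14.93, 14.86 and 14.83 in WT fat. KO minus WT was -4.48 in liver (limma adjusted p = 0.0208) and -4.38 in fat (adjusted p = 0.0148), and the difference was -0.10 (SE 0.867; adjusted p = 0.982), a standard error that leaves room for a difference of more than 1 log2 unit. In KO liver its probe was well above background on 1 of 3 arrays, so the liver effect, and with it the difference, is uncertain. The other genes called in fat, also named after their values were seen, were *Frzb*, *Emb*, *Ccn4* and *Homer2*. Their differences were 1.69, 1.30, 1.64 and 0.97, their fat effects -2.06, -1.54, -1.72 and -1.20, and their liver effects -0.37, -0.24, -0.08 and -0.24, and the differences did not pass (adjusted p from 0.258 to 0.371). *Frzb* was not well above background on any KO fat array and passed the filter in fat through WT alone, so its call there is no support. The bound described for *Ifit2* put the mean of WT fat at 3.73-fold that of KO fat or more for *Frzb*. It takes no account of the spread between arrays or of a detection limit particular to the probe, so it is no support either. *Ccn4* and *Homer2* were well above background on 2 of 4 KO fat arrays.

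Other lists held single genes with small p. Matrix genes had 14 of 33 positive and a median of -0.08, with *Mmp19*, a metalloproteinase gene, at 0.97 and *Timp3*, an inhibitor of such enzymes, at -1.09. Endothelial markers had 4 of 19 positive and a median of -0.35, from 0.00 in liver and 0.31 in fat, and *Egfl7*, a vessel gene, differed by -0.49. Red cell markers had 2 of 8 positive and a median of -0.52 (-0.31 without fat KO 1), from 0.08 in liver and 0.66 in fat. Their member *Tspan33* was positive at 0.99, from 0.95 in liver and -0.03 in fat. *Alas2*, the enzyme gene of heme synthesis in red cells, was at 13.10, 12.98, 12.27 and 12.58 in KO fat and 11.74, 11.92, 11.89 and 11.83 in WT fat, and differed by -1.04. Lists of the mitochondrial ribosome, p53 targets, acute phase proteins and insulin signalling had medians between -0.00075 and 0.04, and their sign varied with the array left out.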

How the data were processed

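Single-colour Agilent arrays were scanned and, per the file headers, processed with Agilent Feature Extraction 10.7.3.1, which gives spot intensity with the background subtracted. Values analysed here are the log2 values that the authors deposited. Limma is also named in the submitters' processing notes, and the table's normalization and centring are not given in the sources used here. Column medians were 5.76 to 5.91. The scanner file of fat WT 2 correlated with its own column at 0.779 (all others at 0.972 or more) and was not used; that column correlated with the other fat columns as they did among themselves and was kept.

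For the main fit, scanner files gave the flags for probes well above background, counted over 13 arrays, and the names and positions of probes. Their intensities were used only for the correlation with the columns and in the alternatives with scanner values. Slides and probe sequences were also taken from them. The probe of a gene with the highest mean over the 14 columns was used. Names of 27816 of 41174 probes were updated through RefSeq accessions, and probe positions are on mm9. One mean per group was fitted to the 14 arrays with limma 3.58.1 in R 4.3.3 (10 residual degrees of freedom, moderated variances, two-sided), with Benjamini-Hochberg adjustment over 12632 genes. No columns were duplicates (highest r between 2 columns 0.987). The number of arrays limits the precision. On data simulated for the difference over 12632 genes, the fit recovered 83.3% of changes of 2 log2 units, 35.8% of changes of 1 and 1.49% of changes of 0.5, with 7 false calls. These changes were given to 66, 67 and 67 genes, with independent normal noise of 1 SD per gene. With so many changed genes the adjustment was more lenient than in the real data, where 3 were called. Recovery on the real arrays can thus be lower, and differences such as -2.57 for *Rgs16* did not pass.

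The members and gene lists were chosen with earlier results of these data known. Lists are described by counts and medians, without a set test. Over all genes tested 46.5% of the differences were positive, which is the share to set beside the count of positive differences in each list. Named genes were the JNK genes, 8 per direction with the smallest p of the difference, up to 4 members of a list with an unadjusted p below 0.05, and genes near *Mapk8* called in a tissue; others are said to be chosen after their values were seen. The alternatives tried changed the values, normalization, filter, probe rule, variance model, arrays, replicate block and slide block; leaving out liver WT 1 and WT 2 was added after seeing the data.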

Additional observations from a re-analysis of the deposited data

Results flagged for a closer look

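The 3 called genes had opposite or unequal knockout effects in the 2 tissues at the 1 probe tested for each, by the test of the difference itself. The differences were -2.18 for *Ppp1r9a*, -1.90 for *Bcl7c* and -1.44 for *Gdap10*. Another *Bcl7c* probe, above background on 6 liver and 7 fat arrays, gave 0.25, and with the mean of all probes 0 genes were called.

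In groups of 4, an array whose gap to its nearest neighbour, as a share of the group's range, passed Dixon's 95% critical value was marked, which chance does in about 1 of 20 groups; 9 of 150 groups were marked (6.0%). Fat KO 1 stood apart at 14.41 for *Tuba1c* (others 14.93 to 14.98), 17.22 for *Adipoq* (others 16.49 to 16.52) and 9.53 for *Ppargc1b* (others 8.38 to 8.50). Fat KO 4 had 11.71 for *Cd9* (others 12.38 to 12.49). Among WT, fat WT 1 had 10.36 for *Manf* (others 10.15 to 10.17), 10.13 for *Sdf2l1* (others 10.49 to 10.54) and 12.44 for *Gpnmb* (others 14.83 to 14.93). Fat WT 2, the array whose scanner file was not used, had 8.33 for *Mapk9* (others 7.83 to 7.90) and 8.83 for *Ifit3* (others 9.26 to 9.31).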

How the results depend on the processing

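Against 3 genes called for the difference, 16 in liver and 7 in fat, the counts were 6, 17 and 28 with all 21 arrays, 13, 53 and 158 with array weights, 5, 18 and 14 with a trended robust variance, 4, 12 and 1 without moderation, and 0, 11 and 14 with the mean of all probes (limma; 978 genes at an unadjusted p below 0.05 for that 0). They were 5, 10 and 9 with no filter, 6, 12 and 8 with the filter in either tissue, and 5, 18 and 0 with the filter on all 13 arrays (1380 at an unadjusted p below 0.05 for the 0). Normalization gave 4, 18 and 11 (centred), 3, 12 and 16 (quantile), 3, 14 and 3 (scanner, 75th percentile) and 4, 9 and 6 (scanner, normexp). A random slide block gave 3, 15 and 6, and a fixed one 1, 2 and 0 (671 at an unadjusted p below 0.05 for the 0), the 1 not being among the 3. Without liver KO 1, KO 2 and WT 3, which leaves 1 KO liver array assumed to vary like the rest, they were 20, 35 and 5, and without liver WT 1 and WT 2 they were 4, 8 and 2. Leaving out 1 array gave 1 to 10 for the difference, 2 to 31 in liver and 2 to 130 in fat. The difference had 1 call without fat KO 2, fat WT 2, WT 3 or WT 4, liver KO 3 or liver WT 1, 6 without liver KO 2 and 10 without liver WT 3; the fat count was 130 without fat WT 1. The cause of these changes was not tested. *Ppp1r9a* was called in 30, *Bcl7c* in 23 and *Gdap10* in 16 of 32 settings, all 3 negative in every one. *Gpnmb* turned positive with scanner normexp values (0.79), quantile normalization (0.073), the mean of its probes (0.36) and without liver KO 3, fat KO 3, liver WT 1, liver WT 3 or fat WT 1 (range over single arrays left out -0.65 to 0.51), and *Mapk9* turned negative with scanner values (-0.0269), without the 3 liver arrays (-0.21) and without liver WT 3 (range over single arrays left out -0.14 to 0.31). Deviations from the group means of same-numbered liver and fat arrays of 1 genotype correlated at r of -0.165 to 0.259 over 6 pairs. For 18 pairs with other numbers r was -0.317 to 0.201. Tissues of 1 mouse need not deviate alike, so this cannot tell whether same-numbered arrays share a mouse. The fit with the replicate block called 3, 11 and 2, with *Gdap10* lost from the 3 (limma adjusted p = 0.0943). With the block within genotype it called 3, 16 and 7. The ER chaperone median stayed between 0.23 and 0.46 over the 32 settings. Probes below background on part of the KO arrays limit *Mapk8*, *Gpnmb*, *Asb4*, *Ccn4* and *Homer2*, and on all of them *Frzb* (fat) and *Ifit2* (liver).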

Other observations

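*Ppp1r9a* and *Asb4*, whose differences of -2.18 and 2.21 have opposite signs, lie near each other on mouse chromosome 6, with probes at 5114866 and 5382886 (mm9). Both belong to an imprinted domain in the mouse together with *Sgce*, which was looked up after these values were seen and whose probe lies at 4624457. *Sgce* was at 9.40, 9.25 and 8.79 in KO liver and 9.70, 9.72 and 10.13 in WT liver, and at 13.08, 12.98, 12.48 and 12.65 in KO fat and 12.85, 11.65, 11.95 and 12.36 in WT fat (difference -1.30, limma adjusted p = 0.355). *Akr1b7*, a gene of the aldo-keto reductase family, also looked up after its values were seen, had the widest difference of the genes tested, 6.70 (SE 2.96; limma adjusted p = 0.581). It was at 4.90, 4.91, 5.33 and 5.399 in KO fat and 16.65, 4.81, 16.52 and 10.61 in WT fat, and between 5.67 and 6.92 in liver. The epididymal genes *Crisp1* and *Spink8* were at 13.93 and 14.03 on fat WT 1 and at 13.48 and 13.95 on fat WT 3, and at 7.47 or less for *Crisp1* and 9.60 or less for *Spink8* on the other fat arrays. The summed intensity of the 19 epididymis and testis markers was 4291.7, 7877.5, 1333.8 and 707.93 in KO fat and 33866, 764.57, 30740 and 1588.2 in WT fat. Their part in the *Akr1b7* value was not tested.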
